A study of Mus musculus with 9 samples.

Results

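RNA-seq levels of the collagen chain genes were followed in cultured mouse mammary tumour lines labelled as Jak1 knockout or wild type. Jak1 encodes a cytoplasmic tyrosine kinase that couples many cytokine receptors to STAT transcription factors. The members are every gene of the deposited table whose symbol has the form of a collagen chain, Col followed by a type number, the letter a and a chain number, and 44 of the 24346 rows had such a symbol. By protein family 11 of them were fibrillar chains, 6 were type IV chains of basement membranes and 27 belonged to other families. The rule used names only and no measured value.

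The 4 knockout libraries were those of lines 45555, 47298, 45566B and 46295, and the 5 wild-type libraries were those of 45555, 47298, 45566B, 33373 and 33377, with the state taken from the labelled Jak1 status. All lines derive from MMTV-neu tumours of FVB/N mice, in which a viral mammary promoter drives the neu oncogene, so all libraries share that transgene. Lines 45555, 47298 and 45566B were present in both states, named Cre and Wt in their titles, and were treated with puromycin. Each line and state is 1 library, ages and culture times were not stated, and nothing is said of repeat cultures. In comparisons within lines, p-values thus reflect how far the difference between knockout and wild type varies from line to line. In the comparison across lines they reflect the spread between different lines of a state. In both, limma draws a gene's spread towards that of genes of similar level, so SE and p also depend on other genes. Spread between cultures of the same line and state, technical spread included, cannot be estimated.

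Collagen chains wind around each other into a helix in which glycine recurs at a fixed interval. Fibrillar chains (types I, II, III, V, XI, XXIV and XXVII) build the cross-linked fibres of connective tissue, with type I and III as the bulk of the tumour stroma and type V and XI as regulators of fibre width. Type IV chains form the sheet-like network under epithelia, and the remaining families form beaded microfilaments (type VI), attach to fibre surfaces (types IX, XII, XIV and XVI), build short-chain networks (type VIII), span the membrane or carry a cleavable endostatin domain (type XVIII). In the mammary gland, fibroblasts make most fibrillar collagen, and both epithelial and mesenchymal cells supply the basement membrane.

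The values are FPKM, fragments scaled to transcript length and to library size, with the library scaling option not stated. Levels of different genes can thus be set side by side per length. The libraries summed to between 567483 and 721843 FPKM, and the number of fragments behind them is unknown. In the table, 7 columns end in a suffix and those of 33373 and 33377 do not, and whether both sets share one scale is not stated. Jak1 itself had 74.4, 27.5, 14.2 and 23.0 FPKM in knockout 45555, 47298, 45566B and 46295, against 86.7, 63.1, 16.1, 19.4 and 54.6 FPKM in wild-type 45555, 47298, 45566B, 33373 and 33377. A whole-gene value does not resolve a deleted part of a gene.

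The libraries differed in cell character before any comparison by state. The summed FPKM of 7 fibroblast and mesenchymal markers was 8321, 1908, 180.0 and 78.9 in knockout 45555, 47298, 45566B and 46295, and 7282, 5611, 79.9, 538 and 4089 in wild-type 45555, 47298, 45566B, 33373 and 33377. For 6 epithelial markers it was 7.06, 408, 2431 and 2544 in the same knockout libraries, and 6.73, 97.9, 2317, 2227 and 159.9 in the wild-type ones. Among the 7, Lum was under 1 FPKM in every library and Dcn was at 0 in 45566B and 46295, while among the 6, Krt19 was at 0 in those libraries. In both states of 47298 and in 33377 the epithelial sum was mostly Krt8 and Krt18, with Epcam at or under 2.36 FPKM. The sum of 5 endothelial markers reached 4.07 FPKM in knockout 47298 and 4.09 in wild-type 47298, nearly all Kdr, with Cdh5 and Tie1 under 0.1 FPKM throughout. The sum of 5 immune markers was 106 FPKM in 46295 and at most 17.9 in the other libraries, nearly all Cd68, with Cd3e listed at 0 in every library. In cultures like these, fewer cells of a type and less RNA per cell cannot be told apart.

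Exon layout differed by class, as a property of the gene models and not of the libraries. In GENCODE vM21, on the build that the submitters' processing notes name (mm10, GRCm38), a median of 46.3% of the coding exons of a fibrillar gene were exactly 54 bases long (range 41.2 to 55.0%). The median was 4.05% for type IV genes (range 2.13 to 5.66%) and 7.50% for the others (range 0 to 44.4%). Among the others Col22a1, at 44.4%, and Col9a2 and Col9a3, at 43.75% each, lay within the fibrillar range. A 54-base exon holds 18 codons, and 6 of them are glycine codons in each exon shown. The middle such exon is shown for the 4 fibrillar genes with the highest mean FPKM, 5′ to 3′, with glycine codons in capitals. They lie at chr11:94944355-94944408 (plus strand, exon 26 of 51), chr6:4524117-4524170 (plus strand, exon 27 of 52), chr1:45334761-45334814 (plus strand, exon 26 of 51) and chr1:45403116-45403169 (minus strand, exon 29 of 54).
Col1a1: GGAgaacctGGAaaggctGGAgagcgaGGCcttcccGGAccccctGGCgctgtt
Col1a2: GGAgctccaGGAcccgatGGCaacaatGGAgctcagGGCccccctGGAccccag
Col3a1: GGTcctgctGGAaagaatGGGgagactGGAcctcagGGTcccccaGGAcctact
Col5a2: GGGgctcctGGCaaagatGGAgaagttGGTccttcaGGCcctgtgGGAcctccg
Each holds 6 glycine codons at the same spacing, while the letters between them differ from chain to chain.

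Of the 44 members, 28 reached 1 FPKM in at least 1 library, 24 reached 10 FPKM and 14 reached 100 FPKM. The other 16 stayed at or under 0.934 FPKM everywhere. Among these were Col2a1, the main collagen of cartilage, Col10a1, a marker of hypertrophic cartilage, Col17a1, a hemidesmosome component of basal keratinocytes, and Col13a1, which was listed at 0 in all 9 libraries. The detected set differed between lines, with 13 members at 1 FPKM or more in each state of 45566B and 21 in each state of 47298. Only 4 members, Col4a1, Col4a2, Col4a5 and Col8a1, kept at least 10 FPKM in every one of the 9 libraries, and 3 of these are type IV chains.

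**Figure D1:**
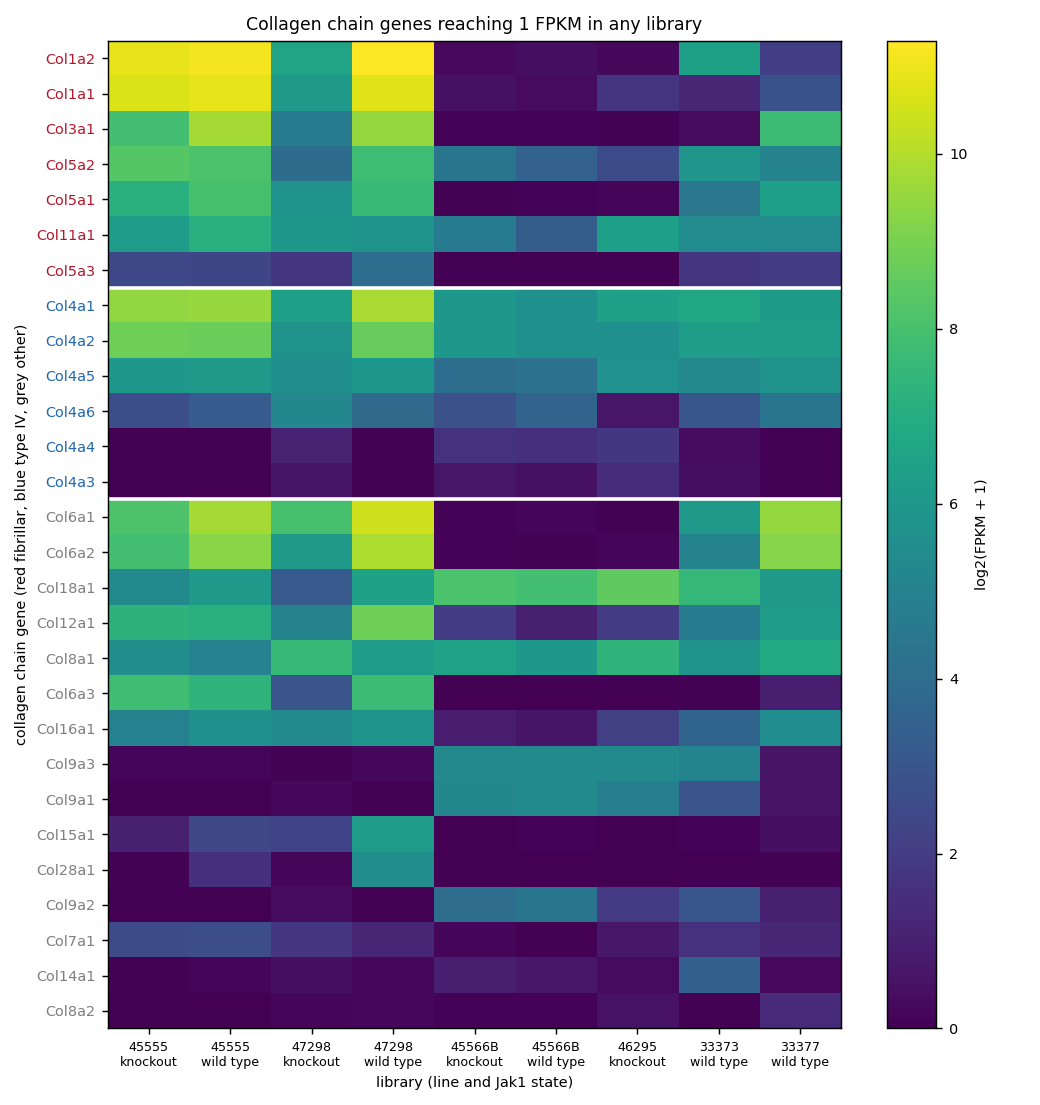
Level of the 28 collagen chain genes that reached 1 FPKM in any library, as log2(FPKM + 1), with genes down the page by class and libraries across it, the knockout library left of the wild-type library of its line. Col1a1, Col1a2, Col3a1 and the type VI chains are bright in 45555 and wild-type 47298 and dark in 45566B and 46295, where Col18a1, Col9a1 and Col9a3 are bright, while Col11a1 has 81.9 FPKM in 46295 and is seen in every library.

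Summed over the members, collagen made up 0.995% of all FPKM in knockout 45555 against 1.29% in wild-type 45555, 0.201% in knockout 47298 against 1.42% in wild-type 47298, and 0.115% in knockout 45566B against 0.0916% in wild-type 45566B. The remaining libraries stood at 0.151% in 46295, 0.153% in 33373 and 0.378% in 33377. The 3 collagen-rich libraries were both states of 45555 and wild-type 47298, and knockout 47298 lay among the low ones. The composition differed along with the amount. Fibrillar chains took 66.1% and 63.6% of collagen FPKM in knockout and wild-type 45555, 27.8% and 53.4% in knockout and wild-type 47298, and 6.69% and 3.82% in knockout and wild-type 45566B. In 46295 they took 10.0%, in 33373 24.4% and in 33377 17.1%.

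Type IV chains varied less in share, between 9.91% (33377) and 26.4% (33373). They took 18.3% in knockout against 14.1% in wild-type 45555, 19.3% in knockout against 13.7% in wild-type 47298, and 23.3% in knockout against 23.5% in wild-type 45566B. The narrow range depends on the class boundary. With types VII, XV and XVIII added to type IV, the share ran from 13.0% (33377) to 66.5% (wild-type 45566B). The leading member also differed: Col1a2 in both states of 45555 and in wild-type 47298, Col6a1 in knockout 47298 and in 33377, and Col18a1 in both states of 45566B, in 46295 and in 33373. In the 4 libraries that Col18a1 led, it alone supplied 20.8 to 42.9% of collagen FPKM.

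**Figure D2:**
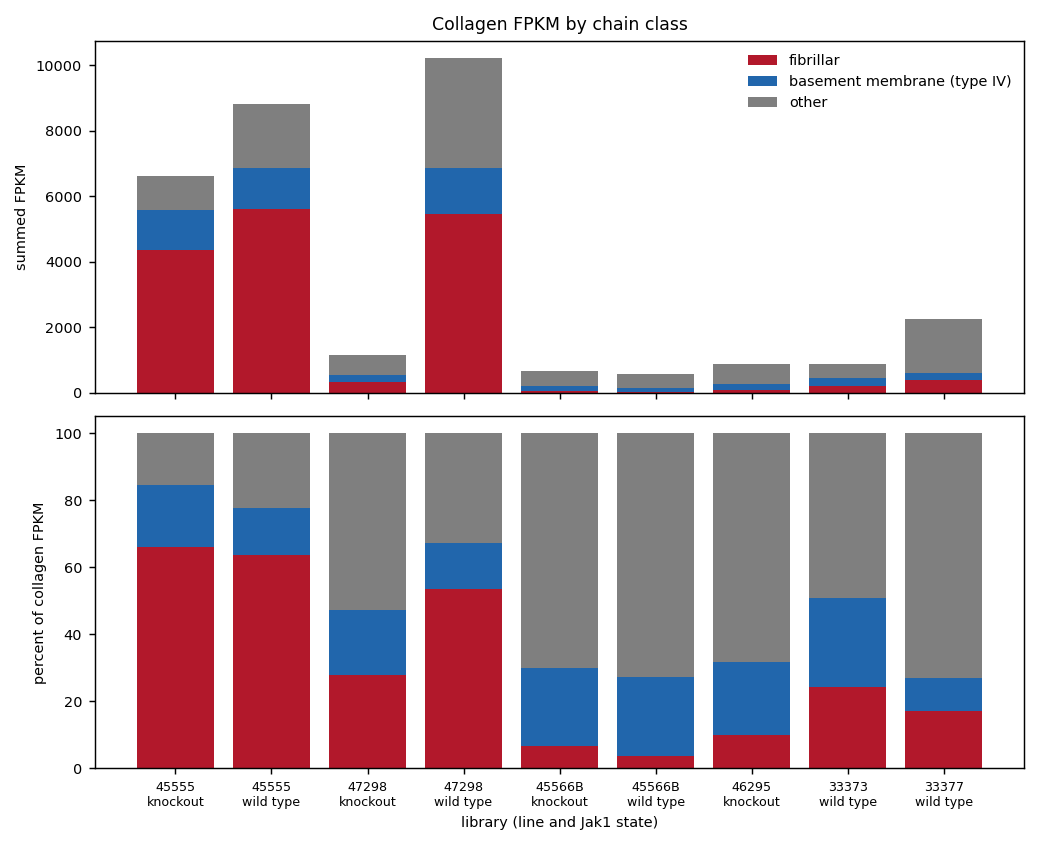
Collagen FPKM of each library split into fibrillar, type IV and other chains, as summed FPKM (top) and as percent of collagen FPKM (bottom), knockout left of wild type within a line. Knockout 47298 holds 1146 FPKM against 10231 FPKM in its wild-type partner, and the fibrillar share runs from 3.82 to 66.1%.

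Type I collagen, the main fibre of skin, bone and stroma, is made of Col1a1 and Col1a2 chains. Col1a1 (chr11:94936224-94953042) had 1675 FPKM in knockout 45555, 65.5 in knockout 47298, 0.409 in knockout 45566B and 2.35 in 46295, against 1879 in wild-type 45555, 1728 in wild-type 47298, 0.271 in wild-type 45566B, 1.32 in 33373 and 6.12 in 33377. Col1a2 (chr6:4504814-4541544) had 1915, 94.3, 0.209 and 0.189 FPKM in the knockout libraries in the same order, against 2174, 2509.9, 0.325, 85.6 and 3.25 in the wild-type ones. The groups overlap for both genes, with both states of 45555 high and both states of 45566B low. The large within-line difference was that of 47298, where wild type held 26.4 times the knockout level of Col1a1 and 26.6 times that of Col1a2. In 45555 the same ratios were 1.12 and 1.14, and in 45566B both genes were under 1 FPKM.

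The proportion of the 2 type I chains was close between the states of a line. The Col1a1 to Col1a2 ratio was 0.875 in knockout against 0.865 in wild-type 45555, and 0.695 in knockout against 0.689 in wild-type 47298. In 33373 it was 0.0154, with Col1a2 present and Col1a1 nearly absent, and in 33377 it was 1.88. Each ratio comes from a single library, so it has no error of its own.

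Col3a1, the chain of the thin fibres of loose tissue, had 241, 24.7, 0.0892 and 0.0436 FPKM in knockout 45555, 47298, 45566B and 46295, against 883, 738, 0.0726, 0.246 and 213 FPKM in wild-type 45555, 47298, 45566B, 33373 and 33377. Wild type was thus 3.67 times the knockout level in 45555 and 29.9 times in 47298. In 33377 Col3a1 stood at 34.9 times Col1a1, whereas in the libraries of 45555 and 47298 it was at 0.144 to 0.470 of Col1a1. Col3a1 and Col5a2 are neighbours on chromosome 1 and are read from opposite strands, at chr1:45311538-45349706 and chr1:45374321-45503282.

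The type V chains, which set fibre diameter, differed from each other. Col5a1 had 145, 53.0, 0.0449 and 0.121 FPKM in knockout 45555, 47298, 45566B and 46295, against 255, 194, 0.0682, 21.4 and 80.9 in wild-type 45555, 47298, 45566B, 33373 and 33377. Col5a2 had 314, 14.7, 19.8 and 4.83 FPKM in those knockout libraries, against 277, 221, 10.9, 58.3 and 32.5 in the wild-type ones. Their ratio therefore shifted, with Col5a1 at 0.460 of Col5a2 in knockout against 0.921 in wild-type 45555, and at 3.60 in knockout against 0.876 in wild-type 47298. In 45566B and 46295 Col5a2 was detected with next to no Col5a1. Col5a3 had 2.40 FPKM in knockout 47298 against 16.1 in wild-type 47298, and was at or under 4.38 FPKM in the other libraries. Col11a1, a chain that can join type V fibres, and Col5a2 were the 2 fibrillar genes at 1 FPKM or more in every library. Col11a1 had 72.1, 63.8, 23.1 and 81.9 FPKM in the knockout libraries, against 133, 54.8, 8.94, 42.5 and 43.0 in the wild-type ones, and its knockout to wild-type ratios of 0.542, 1.17 and 2.58 in 45555, 47298 and 45566B had no common direction.

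Promoter windows were read from RefSeq (build GRCm38.p6, 250 bases before to 50 after a start) and were found for 35 of the 44 members. Those of Col1a2 and Col3a1 are shown because these 2 fibrillar genes were lower together in 47298 while only Col3a1 was far lower in 45555. They lie at chr6:4505368-4505667 and chr1:45311288-45311587, both on the plus strand. Capitals mark the letters CCAAT, the GC box GGGCGG and the TATA box TATAAA, on either strand.
Col1a2: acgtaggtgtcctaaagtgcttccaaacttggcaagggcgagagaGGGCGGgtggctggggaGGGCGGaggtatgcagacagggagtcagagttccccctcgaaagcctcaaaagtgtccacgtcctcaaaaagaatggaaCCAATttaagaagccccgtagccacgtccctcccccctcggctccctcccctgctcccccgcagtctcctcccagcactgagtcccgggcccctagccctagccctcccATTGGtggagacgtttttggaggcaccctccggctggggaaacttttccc
Col3a1: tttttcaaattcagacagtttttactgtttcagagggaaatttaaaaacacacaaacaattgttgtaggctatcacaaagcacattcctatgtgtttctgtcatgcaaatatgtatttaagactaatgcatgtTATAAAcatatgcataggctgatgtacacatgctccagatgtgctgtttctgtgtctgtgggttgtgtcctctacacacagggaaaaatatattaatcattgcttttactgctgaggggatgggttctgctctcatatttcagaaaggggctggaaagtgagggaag
The Col1a2 window holds 2 CCAAT and 2 GGGCGG matches at 61.0% G and C, whereas the Col3a1 window holds 1 TATAAA match at 37.7%. Over all 32851 windows, CCAAT (5 letters) is found in 37.4%, GGGCGG in 35.7% and TATAAA in 13.6%, and over the 38 collagen windows in 34.2, 60.5 and 13.2%. The STAT motif TTCNNNGAA, which reads the same on both strands, is in 8.30% of all windows and in 5.26% of the collagen windows, those of Col28a1 and Col6a5. Where matches of CCAAT and GGGCGG would overlap, each was counted. Matches were counted anywhere in a window, whatever their distance to the start, so a TATAAA match need not be a working TATA box. Such matches describe letters and not binding.

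Type IV collagen is the scaffold of basement membranes, and Col4a1 with Col4a2 is its widespread form. Col4a1 had 696, 82.1, 65.0 and 87.3 FPKM in knockout 45555, 47298, 45566B and 46295, against 741, 922, 50.1, 105 and 70.9 in wild-type 45555, 47298, 45566B, 33373 and 33377. Col4a2 had 443, 52.6, 64.3 and 50.2 FPKM in those knockout libraries, against 429, 406, 50.2, 78.7 and 79.0 in the wild-type ones. Both were high in 45555 and wild-type 47298 and otherwise held at least 50.1 FPKM, so the groups overlap. Wild type was 11.2 times knockout for Col4a1 and 7.73 times for Col4a2 in 47298, while in 45555 the ratios were 1.07 and 0.969 and in 45566B 0.772 and 0.781.

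The 2 genes start back to back on chromosome 8, Col4a1 at chr8:11198423-11312826 on the minus strand and Col4a2 at chr8:11312805-11449287 on the plus strand. Their promoter windows, chr8:11312777-11313076 and chr8:11312555-11312854, share the 78 bases chr8:11312777-11312854, in capitals in each, read from opposite strands.
Col4a1: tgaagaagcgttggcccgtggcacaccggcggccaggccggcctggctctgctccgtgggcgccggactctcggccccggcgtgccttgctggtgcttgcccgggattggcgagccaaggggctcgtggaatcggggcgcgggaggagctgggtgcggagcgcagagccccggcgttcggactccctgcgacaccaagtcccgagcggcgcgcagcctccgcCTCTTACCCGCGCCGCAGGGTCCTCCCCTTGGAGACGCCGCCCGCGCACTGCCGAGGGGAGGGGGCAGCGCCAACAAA
Col4a2: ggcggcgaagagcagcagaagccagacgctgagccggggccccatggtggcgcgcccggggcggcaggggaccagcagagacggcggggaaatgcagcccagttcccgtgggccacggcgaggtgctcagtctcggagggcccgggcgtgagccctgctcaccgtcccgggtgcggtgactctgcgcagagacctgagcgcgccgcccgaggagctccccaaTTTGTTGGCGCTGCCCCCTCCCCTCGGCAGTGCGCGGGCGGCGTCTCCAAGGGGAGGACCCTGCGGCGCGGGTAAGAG
The Col4a1 to Col4a2 ratio stayed between 0.897 (33377) and 2.27 (wild-type 47298) over the 9 libraries, the smallest ratio of highest to lowest among the chain pairs that both reached 1 FPKM in at least 6 libraries. It was 1.57 in knockout against 1.73 in wild-type 45555, 1.56 in knockout against 2.27 in wild-type 47298, and 1.01 in knockout against 0.999 in wild-type 45566B. The overlap of the transcribed ends means that fragments from the shared stretch cannot be told apart if the libraries did not keep strand.

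The second back-to-back pair, Col4a5 and Col4a6 on the X chromosome, did not keep to one proportion. Col4a5 had 64.7, 48.7, 15.7 and 52.1 FPKM in knockout 45555, 47298, 45566B and 46295, against 67.7, 63.1, 18.3, 38.3 and 52.5 in wild-type 45555, 47298, 45566B, 33373 and 33377. Col4a6 had 5.48, 36.4, 5.89 and 0.589 FPKM in those knockout libraries, against 8.55, 13.9, 11.0, 7.10 and 19.7 in the wild-type ones. Col4a6 in 47298 was higher in knockout, by 2.61 times, and lower in the other 2 lines, and the Col4a5 to Col4a6 ratio was 1.34 in knockout against 4.53 in wild-type 47298. The mean Col4a6 difference over the 3 lines was -0.01 on the log2(FPKM + 1) scale, and 0.18 when short RNA genes were left out and libraries set to equal sums. The third pair, Col4a3 and Col4a4, the chains of kidney and lung basement membranes, stayed at or under 2.55 FPKM. Both were highest in 46295, at 1.72 and 2.55 FPKM.

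**Figure D3:**
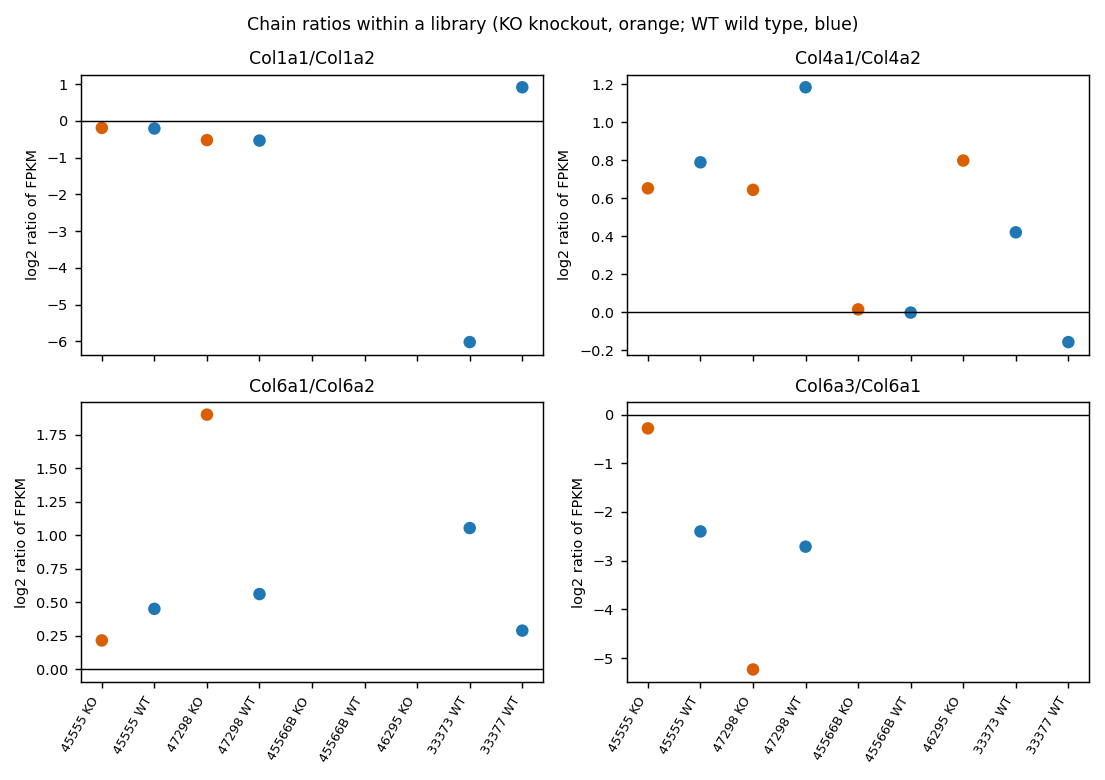
Ratio of FPKM between partner chains within a library, as log2, for libraries where both chains reached 1 FPKM (orange knockout, blue wild type, knockout left of wild type within a line). Col1a1/Col1a2 sits at the same height in both states of 45555 and of 47298, and Col6a3/Col6a1 is at 0.823 in knockout 45555 against 0.190 in wild-type 45555 and at 0.0266 in knockout 47298 against 0.153 in wild-type 47298.

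Type VI collagen forms beaded microfilaments around cells and needs its a1, a2 and a3 chains. Col6a1 had 279, 255, 0.0878 and 0.0619 FPKM in knockout 45555, 47298, 45566B and 46295, against 866, 1410.4, 0.116, 66.4 and 731 in wild-type 45555, 47298, 45566B, 33373 and 33377. Col6a2 had 240.2, 68.4, 0.0835 and 0.0994 FPKM in those knockout libraries, against 633, 955, 0.0621, 32.0 and 598 in the wild-type ones. Both were lower in the knockout library of 45555 and of 47298, with wild-type to knockout ratios of 3.10 and 5.53 for Col6a1 and 2.64 and 14.0 for Col6a2, and both were near 0 in the 45566B pair and in 46295. Col6a3 did not follow its partners. It had 229.6 FPKM in knockout against 164 in wild-type 45555, 6.77 in knockout against 215 in wild-type 47298, and under 1 FPKM in the other 5 libraries, 33377 included, where Col6a1 and Col6a2 were high.

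Type VIII and XVIII collagens had other high libraries than the fibre-forming chains. Col8a1, a short-chain collagen of vessel walls and cornea, had 47.1, 186, 91.0 and 162 FPKM in knockout 45555, 47298, 45566B and 46295, against 31.0, 72.3, 63.4, 52.6 and 119 in wild-type 45555, 47298, 45566B, 33373 and 33377. It was higher in the knockout library of all 3 lines, by 1.52, 2.57 and 1.43 times, though the states overlap over all libraries. Its partner gene Col8a2 stayed at or under 1.61 FPKM. Col18a1, whose C-terminal part is released as endostatin, had 41.7, 7.95, 276 and 369.9 FPKM in the knockout libraries, against 67.7, 86.7, 241, 181 and 66.9 in the wild-type ones. It was highest in the 4 libraries with the highest epithelial marker sums, and in 47298 the wild-type library held 10.9 times the knockout level.

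The fibre-surface collagens fell into 2 sets by line. Col9a1, Col9a2 and Col9a3, whose products form type IX collagen of cartilage, were at 27.4 to 40.6 FPKM for Col9a1 and Col9a3 in the knockout libraries of 45566B and 46295, and Col9a1 at 39.5 and Col9a3 at 41.0 in wild-type 45566B. Col9a2 had 15.5 FPKM in knockout 45566B and 2.80 in 46295, against 20.0 in wild-type 45566B and 7.23 in 33373. Col9a3 had 33.3 FPKM in 33373, and all 3 genes were under 1 FPKM in 33377 and in every library of 45555 and 47298. Of the 4 chondrocyte markers, Sox9 had 31.1 FPKM in 46295, 29.5 in 33373 and between 3.73 and 33.1 over all libraries, Comp reached 9.87 FPKM in knockout 47298, Acan stayed under 0.1 FPKM and Matn1 was listed at 0 in every library. Col12a1, which sits on type I fibres, showed the opposite order, with 155, 32.0, 2.99 and 2.91 FPKM in the knockout libraries, against 135, 444, 1.01, 23.5 and 71.7 in the wild-type ones. Col16a1 ranged from 0.540 to 55.9 FPKM in a similar order, and Col14a1 passed 1 FPKM only in 33373, at 10.2 FPKM.

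Both Col15a1 and Col28a1 had their highest level in wild-type 47298. Col15a1, a basement-membrane-zone proteoglycan related to Col18a1, had 0.990, 3.79, 0.0288 and 0 FPKM in knockout 45555, 47298, 45566B and 46295, against 4.25, 74.2, 0.0951, 0.0773 and 0.391 in wild-type 45555, 47298, 45566B, 33373 and 33377. Col28a1, a chain of nerve-associated basement membranes, had 0.0487, 0.134, 0.00914 and 0 FPKM in those knockout libraries, against 1.94, 44.7, 0.0302, 0.0246 and 0.0552 in the wild-type ones. Both were lower in knockout in 45555 and in 47298 and were near 0 elsewhere. Col7a1, the anchoring fibril of skin, stayed at or under 5.27 FPKM.

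The within-line comparison asks what differs with the Jak1 label inside a line. Over lines 45555, 47298 and 45566B, limma tested the 12063 genes averaging 1 FPKM or more, on log2(FPKM + 1) with the line as a block, and called 0.0% of them at an adjusted p under 0.05, with 3.37% at an unadjusted p under 0.05. No member was called. Of the 24 members tested, 20 had a lower and 4 a higher mean in knockout, with a median log2 difference of -0.88 against -0.01 over all genes. Over all 12063 genes 6200 were lower and 5863 higher. These 24 passed a filter that keeps genes through the libraries where they are high, and the other 20 members were not tested here. The member with the smallest p, and the only one under 0.05 unadjusted, was Col8a1 (log2 fold change 0.82, SE 0.23, adjusted p = 0.762 by limma, higher in 3 of 3 lines). Over all genes 1.51% were higher and 1.86% lower at that unadjusted threshold. The same sign in all 3 lines was seen in 6 members on the lower side (Col1a2, Col4a5, Col5a1, Col6a1, Col15a1 and Col28a1) and 1 on the higher side, against 13.3% and 14.3% of genes. Of these 6, only Col4a5 was above 1 FPKM in 45566B, and for the other 5 the sign in that line rests on values near 0 that cannot be ordered.

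The classes were given no test of their own and are described by their medians. The 7 tested fibrillar genes had a median of -0.94, with 6 lower, the 4 type IV genes -0.53, with 4 lower (Col4a6 only at -0.01), and the 13 others -0.86, with 10 lower. Line by line the picture was uneven. In 47298 the medians were -3.82 for fibrillar, -1.65 for type IV and -2.46 for other genes, against 0.01 over all genes. In 45555 they were -0.18, -0.08 and -0.06 against -0.03, and in 45566B 0.02, 0.07 and 0.02 against 0.01. Without line 47298, Col4a1 and Col4a2 turned to 0.14 and 0.20 on average over the other 2 lines.

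A difference of 1 or more on the log2(FPKM + 1) scale within a line was used to count the 24 tested members, and no untested member differed by that much. In 47298, 15 of 24 were lower and 2, Col4a6 and Col8a1, were higher in knockout, where 11.0% of the genes tested were lower and 8.49% higher by that much. In 45555, 5 of 24 were lower (Col3a1, Col6a1, Col6a2, Col15a1 and Col28a1) and 0 higher, against 6.68% and 3.2% of genes. In 45566B, 0 of 24 were lower and 1, Col11a1, was higher, against 2.17% and 0.854%. Each of these rests on 1 library per state, with no replicate check. In 47298 the fibroblast and mesenchymal marker sum was 1908 FPKM in knockout against 5611 in wild type. Of these markers Dcn was higher in knockout, at 27.3 against 12.2, while Vim, S100a4, Pdgfra, Pdgfrb and Thy1 were lower. The epithelial sum was 408 in knockout against 97.9 in wild type, mostly Krt8 and Krt18. Epcam, Cdh1 and Cldn4 were under 1 FPKM in both states, and Krt19 was at 0.307 in knockout against 5.97 in wild type. The sum of 3 adipocyte markers in 47298 was 15.6 in knockout against 905 in wild type, mostly Fabp4. In 45555 the fibroblast and mesenchymal sum was 8321 in knockout against 7282 in wild type, mostly Vim and S100a4, while Pdgfra was at 41.3 in knockout against 143 in wild type. The sum of 6 basal and myoepithelial markers in 45555 was 1297 in knockout against 179 in wild type, mostly Acta2, and in 47298 it was 12.8 in knockout against 109 in wild type. The epithelial sum in 45555 was 7.06 in knockout against 6.73 in wild type, and the adipocyte sum 311 in knockout against 331 in wild type. The part of these markers in the collagen difference was not tested.

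**Figure D4:**
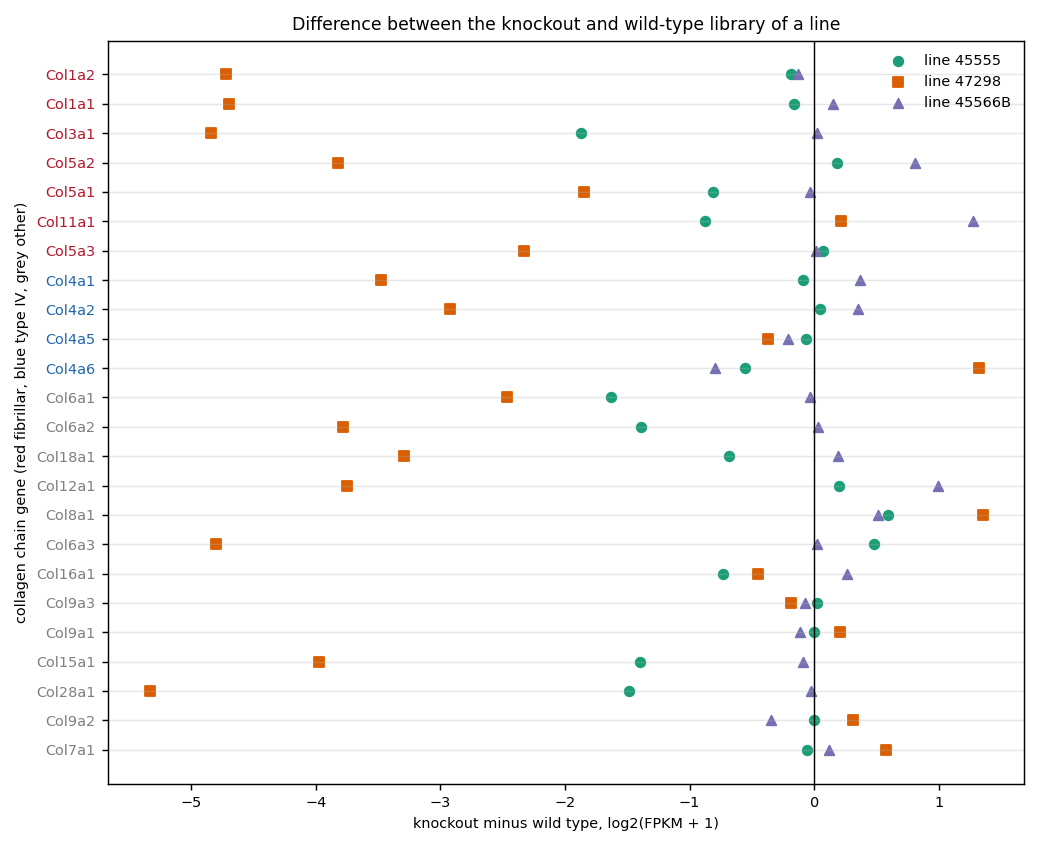
Knockout minus wild-type difference of log2(FPKM + 1) for the 24 tested collagen chain genes (down the page, by class) in lines 45555 (circles), 47298 (squares) and 45566B (triangles), 1 library per state. The squares of most fibrillar and type VI genes lie between -1.85 and -4.84, the triangles lie between -0.80 and 1.28, and Col8a1 is to the right of 0 in all 3 lines.

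The isogenic comparison kept lines 45555 and 47298 and shares their 4 libraries with the one above. Of 11704 genes, 0.0% were called at an adjusted p under 0.05 and 6.5% had an unadjusted p under 0.05, 4.26% lower and 2.24% higher in knockout. No member was called, and 6 of 21 tested members were lower at an unadjusted p under 0.05, each with an adjusted p of 0.721 by limma and lower in 2 of 2 lines. They were Col6a1 (log2 fold change -2.05, SE 0.41), Col3a1 (-3.36, SE 0.88), Col15a1 (-2.69, SE 0.76), Col6a2 (-2.59, SE 0.73), Col5a1 (-1.33, SE 0.39) and Col28a1 (-3.41, SE 1.11). Without the block for line there were 3. The 21 members passed a filter that keeps genes through the libraries where they are high. Col28a1 passed it through wild type alone, with 1.94 FPKM in 45555 and 44.7 in 47298, against 0.0487 and 0.134 in knockout. It could therefore only come out lower in knockout. Col1a1 and Col1a2, which differed by much in 47298 and by little in 45555, had log2 fold changes of -2.43 (SE 1.31) and -2.45 (SE 1.32). With only 2 lines, each SE leans on the spread of other genes, so a small p need not mean that the lines agree in size. Col3a1 differed by -1.87 in 45555 and -4.84 in 47298, and Col28a1 by -1.49 in 45555 and -5.33 in 47298. Class medians were -1.82 for fibrillar, -0.83 for type IV and -2.02 for other genes, against -0.02 over all genes.

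The panel comparison set knockout 45566B and 46295 against wild-type 45566B, 33373 and 33377, of which only 45566B is in both states. It had no block for line, so the 2 libraries of 45566B, whose deviations correlated at 0.80, were treated as independent. The wild-type lines 33373 and 33377 also lack the column suffix, and puromycin is named here for 45566B only. State, line, column set and treatment can therefore not be told apart in this comparison. Of 11838 genes, 0.0% were called at an adjusted p under 0.05, and 1.82% had an unadjusted p under 0.05, 1.33% lower and 0.49% higher in knockout. No member was called, and among the 22 tested only Col4a6 had an unadjusted p under 0.05 (log2 fold change -1.93, SE 0.75, adjusted p = 0.999 by limma), lower in both knockout libraries than in all 3 wild-type ones. Such separation, knockout below, was seen in 6.43% of genes and in 3 members, Col1a2, Col4a6 and Col6a1, of which Col1a2 and Col6a1 were under 1 FPKM in both libraries of 45566B. Separation the other way was seen in 7.67% of genes and in Col18a1 and Col4a4. Class medians were -1.38 for fibrillar, -0.20 for type IV and -0.34 for other genes, against 0.02 over all genes, but without 33373 and 33377 the fibrillar median was 0.77 over the 3 fibrillar genes still tested.

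Genes that make, trim and bind collagen were taken from lists chosen with earlier results of these data known. Of 22 measured biosynthesis genes, 18 of 20 tested had a lower and 2 a higher mean in knockout over the 3 lines, with a median of -0.31, and none was called. Over all 12063 genes 6200 were lower and the median was -0.01. P4ha1, a catalytic subunit of the prolyl hydroxylase that stabilises the helix, had 109, 85.7, 15.8 and 27.8 FPKM in knockout 45555, 47298, 45566B and 46295, against 168, 147, 18.04, 41.1 and 70.7 in wild-type 45555, 47298, 45566B, 33373 and 33377 (log2 fold change within lines -0.52, SE 0.19, adjusted p = 0.762 by limma). Serpinh1, the collagen chaperone HSP47, stayed abundant everywhere, at 1360.2, 385, 297 and 267 FPKM in the knockout libraries, against 1104, 698, 252, 324 and 481 in the wild-type ones. P4ha2, the other main catalytic subunit, had a log2 fold change of -1.37 (SE 0.44, adjusted p = 0.721 by limma) in the isogenic comparison, and Fkbp14, a folding helper of the secretory pathway, had -0.47 (SE 0.17, adjusted p = 0.762 by limma) over the 3 lines. In the panel, Plod3, a lysyl hydroxylase, had -0.86 (SE 0.25, adjusted p = 0.999 by limma). The libraries with the least type I collagen still held 252 FPKM or more of this chaperone.

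Of 11 tested maturation genes 8 were lower and 3 higher over the 3 lines, with none called, where 6200 of all 12063 genes were lower. Lox, the enzyme that starts fibre cross-links, had 1076, 68.8, 0.129 and 0.232 FPKM in the knockout libraries, against 1238, 1518, 0.165, 3.10 and 2102 in the wild-type ones, so it was low in knockout 47298 as type I collagen was, but high in 33377 where type I collagen was low. Pcolce2, an enhancer of procollagen trimming, was higher in knockout within each line, with 8.31, 53.6, 8.55 and 0.773 FPKM in the knockout libraries, against 0.473, 8.74, 3.45, 1.39 and 22.6 in the wild-type ones (log2 fold change within lines 2.08, SE 0.38, adjusted p = 0.762 by limma, higher in 3 of 3 lines).

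Among 11 tested matrix organisers 9 were lower and 2 higher, and among 8 tested collagen receptors 5 were lower and 3 higher, with none called in either list. Over all 12063 genes 6200 were lower. The 2 higher organisers were Thbs1 (log2 fold change 0.25, SE 0.57) and Dcn (0.02, SE 0.47). The 3 higher receptors were Itgb1 (0.50, SE 0.26), Itga2 (0.49, SE 0.37) and Ddr1 (0.28, SE 0.26). Sparc, a collagen-binding matrix protein, had 2186, 450.2, 8.79 and 1.72 FPKM in the knockout libraries, against 2298, 2389, 1.67, 300.2 and 654 in the wild-type ones. Ddr2, a receptor kinase for fibrillar collagen in mesenchymal cells, had 83.7, 3.19, 0.0273 and 0.376 FPKM in the knockout libraries, against 83.3, 100.0, 0.0361, 0.306 and 3.40 in the wild-type ones, while its epithelial relative Ddr1 ranged from 18.1 to 90.4 FPKM. Thbs2, a matricellular protein, had a log2 fold change of -2.37 (SE 0.70, adjusted p = 0.721 by limma) in the isogenic comparison. Itga11, an integrin chain that binds fibrillar collagen, was lower in knockout in both isogenic lines (log2 fold change -2.12, SE 0.58, adjusted p = 0.721 by limma, n = 2 lines).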

How the data were processed

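RNA was sequenced from 9 libraries of 6 lines. The authors deposited FPKM per gene, and the submitters' processing notes name cutadapt, TopHat2 2.1, Cufflinks 2.2, Cuffnorm and the build mm10, with no annotation, strand setting or scaling option stated. FPKM hold no counts, so depth is unknown and no counting interval is given. The smaller deposited table is identical to 4 columns of the larger. Left out of the tests were 27 rows whose name is a date and 4 with a repeated name.

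The members and lists were chosen with earlier results of these data known. Differences were tested with limma 3.58.1 (R 4.3.3, trend, two-sided) on log2(FPKM + 1), over genes averaging 1 FPKM or more across the libraries compared, with Benjamini-Hochberg adjustment over all genes tested and a threshold of 0.05, after the code was tested on simulated data. A fold change on this scale understates the change of low genes. Within-line fits had the line as a block, since titles give 1 line number to both states. Deviations of the 2 libraries of a line correlated at 0.70, 0.40 and 0.80 in 45555, 47298 and 45566B over 12063 genes. Chain ratios were taken where both genes reached 1 FPKM. Named with values were Col1a1 and Col3a1, members reaching 50 FPKM in any library, up to 5 members per direction with the smallest unadjusted p under 0.05, members differing within a line by 2 on the log2 scale with 10 FPKM in a library, and chain partners. The rule for biosynthesis, organiser and receptor genes took up to 3 per direction with the smallest p and those reaching 100 FPKM. Only part of these are named, mainly those with an unadjusted p under 0.05, and the rest enter the counts. That selection, and the naming of Lox, Pcolce2, Ddr1 and Ddr2, was made after values were seen. Alternatives were another pseudocount (0.1), other filters, other scalings, no block and leaving libraries out. In the within-line fits, leaving out a library also took out its partner, and so the whole line.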

Additional observations from a re-analysis of the deposited data

Results flagged for a closer look

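For 14 named members the highest and lowest library of each state were set against the other libraries of that state by Dixon's test, 28 groups in all. The test takes values to be normally spread, whereas these are FPKM of different lines, from members chosen with values known. Its nominal rate of 1 in 20 therefore does not hold here, and a flag can be a plain difference between lines. In 9 of these groups 1 library stood apart, and these fell in 4 libraries of 3 lines.

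Among the 4 knockout libraries, that of 45555 stood apart for 5 genes. It held 1675 FPKM of Col1a1 with the next library at 65.5, 1915 of Col1a2 with the next at 94.3, 241 of Col3a1 with the next at 24.7, 696 of Col4a1 with the next at 87.3, and 443 of Col4a2 with the next at 64.3. The wild-type library of 45555 held 1879, 2174, 883, 741 and 429 FPKM of these 5 genes, in the same order. The knockout library of 47298 stood apart for Col4a6, at 36.4 FPKM with the next at 5.89.

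Among the 5 wild-type libraries, that of 47298 held 74.2 FPKM of Col15a1 with the next at 4.25, and 44.7 FPKM of Col28a1 with the next at 1.94. The wild-type library of 45566B held 39.5 FPKM of Col9a1 with the next at 6.62. The knockout library of 45566B, of the same line, held 36.4 FPKM of Col9a1.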

How the results depend on the processing

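The alternatives were followed for the same 14 named members and not for the others. None of the 14 passed an adjusted p of 0.05 by limma in an alternative run that gave p-values. Of 416 fold changes recomputed for them, 393 kept their direction. Within lines, leaving out either library of a line took out the whole line, and such a run is counted for both states. Over the 3 lines, genes called ranged from 0 to 6 when a line was left out, with 6 without line 47298. Members under an unadjusted p of 0.05 (1 as reported) then ranged from 0 to 6, with 6 without line 45566B. The run without 45566B is the isogenic comparison itself and repeats its values. Members under that threshold were 3 with a pseudocount of 0.1, 2 with no filter or with short RNA genes left out and equal sums, and 0 without the replicate block. In the isogenic comparison the genes called (0 as reported) were 4 with a pseudocount of 0.1, 3 with a filter at 5 FPKM and 6 without the replicate block, which left 3 members (6 as reported). In the panel 4 genes were called with a pseudocount of 0.1. Its members under 0.05 (1 as reported) were 0 with that pseudocount, a filter at 5 FPKM, either scaling, or without 33373 and 33377, and ranged from 0 to 10 on leaving out a library, with 10 without wild-type 45566B.

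Directions turned for these log2 fold changes. Over the 3 lines Col4a6 was 0.0039 with upper-quartile scaling and 0.18 with short RNA genes left out. Leaving out a line gave Col4a6 -0.68 to 0.38, Col4a1 -1.78 to 0.14, Col4a2 -1.44 to 0.20 and Col9a1 -0.058 to 0.046. In the isogenic comparison it gave Col4a2 -2.93 to 0.046 and Col4a6 -0.56 to 1.32, each being the other line's difference. In the panel leaving out 1 library gave -0.97 to 0.34 for Col1a1 and -0.20 to 0.33 for Col4a1, with 0.77, 0.18 and -0.31 for Col1a1, Col4a2 and Col9a1 without 33373 and 33377, where the fibrillar median was 0.77. Leaving short RNA genes out put the median of all genes at 0.16 over the 3 lines and 0.20 in the isogenic comparison, against -0.01 and -0.02. The cause of these changes was not tested. With 1 library per line and state, and depth unknown, members near 0 FPKM cannot be ordered.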
